A study of Homo sapiens with 12 samples.

Results

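The comparison was of DLD1 cells after 1 h with 10 µM TCDD against DLD1 cells after 1 h with DMSO, the vehicle. It used 6 of the 12 libraries of the series, 3 with TCDD and 3 with DMSO, chosen by their labelled treatment, and it was followed across all 13619 genes with enough reads to be tested. DLD1 is an established human colon adenocarcinoma line, and TCDD (2,3,7,8-tetrachlorodibenzo-p-dioxin) is the prototypical strong agonist of the aryl hydrocarbon receptor (AHR). The other 6 libraries, 3 with kynurenine and 3 with CH223191, an AHR antagonist, each at 10 µM for 1 h, served for the shared estimate of spread and for setting values side by side. Cells of all groups were cultured without a genetic change named in the labels. Separate cultures are not mentioned in the labels. A p-value here therefore measures the spread between libraries, which may be technical.

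The AHR rests in the cytosol with chaperones, moves to the nucleus once a ligand binds, pairs there with ARNT and binds DNA at sites that carry the core GCGTG. Its best known targets encode enzymes that oxidise foreign chemicals, with CYP1A1 at their head, and its own inhibitors AHRR and TIPARP. In the gut epithelium the receptor is known for sensing compounds of diet and microbes and for influencing differentiation and barrier genes.

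The 6 libraries held 22834076 to 27579937 reads counted on genes. Values are given in CPM, counts scaled by library total and TMM factor, which is a share of a library's reads and not an amount per cell. Fewer cells that express a gene and less RNA per cell cannot be told apart in such data. Every adjusted p below comes from edgeR's quasi-likelihood test with Benjamini-Hochberg adjustment over the 13619 genes, and a gene was called where it was under 0.05. Of the epithelial and colon markers listed for the line, 14 of 19 had enough reads to be tested, led by KRT8, KRT18 and EPCAM. CDX1, GPA33, CEACAM5 and MUC2 had too few, and FABP1 had 0 reads in the 6 libraries. Defining markers of fibroblasts (COL3A1, DCN), T cells (CD3D) and endothelium (CDH5, KDR) were at 0 reads too. Other members of those lists had reads. LYZ averaged 7.23 CPM with TCDD and 6.90 CPM with DMSO, CD68 3.40 and 3.36, FLT1 2.64 and 2.74, and COL1A1 0.44 and 0.43. The summed level of the 10 fibroblast markers was 0.654 to 1.26 CPM with TCDD against 0.915 to 1.28 CPM with DMSO, that of the 10 immune markers was 9.56 to 15.8 CPM with TCDD against 9.62 to 17.0 CPM with DMSO, and that of the 8 endothelial markers was 5.46 to 6.59 CPM with TCDD against 5.31 to 6.10 CPM with DMSO. Of the 12 tested members of these last 3 lists, edgeR called 0, DESeq2 called 0 and 0 had an unadjusted p under 0.05.

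The response had a few large rises on a broad floor of small changes in both directions. Of 13619 genes, 1599 were called (11.7%), 805 higher with TCDD (5.91%) and 794 lower (5.83%). The rises were the larger changes: called genes that rose had a median log2 fold change of 0.21, 86 of them changed at least 1.5-fold and 34 at least 2-fold. Called genes that fell had a median of -0.17, with 12 at least 1.5-fold lower and 3 at least 2-fold lower, and 87.4% of them differed by less than 1.2-fold. Over all tested genes the median was 0.00084, and 27.8% of the tested genes had groups that did not overlap.

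The number of calls rested on a few libraries, whereas a smaller set of genes did not. Without TCDD replicate 3 the calls numbered 805, without DMSO replicate 1 they numbered 851 and without DMSO replicate 3 they numbered 1020. The 13 alternative settings of scaling, filter, model, tool and left-out library did not all give every gene an adjusted p. In every setting that gave one, 554 genes kept their call with the same direction, 339 higher and 215 lower. Of the 339, 56 rose by 1.5-fold or more, and of the 215, 3 fell by as much. With trends of GC content and transcript length removed, the split was 516 higher and 749 lower, against 805 higher and 794 lower without that step.

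**Figure D1:**
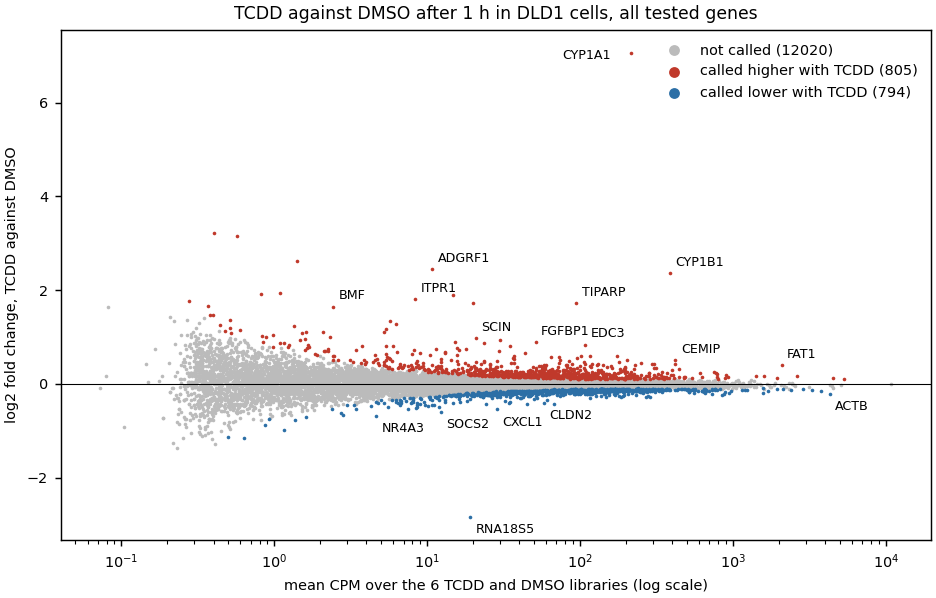
Log2 fold change of TCDD against DMSO (vertical axis) by mean CPM over the 6 libraries (horizontal axis, log scale) for each of the 13619 tested genes, with the 805 called higher in red, the 794 called lower in blue and the rest in grey. CYP1A1 lies at 7.05, ADGRF1 at 2.44 and CYP1B1 at 2.36, and the called falls have a median of -0.17. RNA18S5, at -2.84, had most of its reads in DMSO replicate 1.

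The classical targets checked the treatment. CYP1A1 had 435, 438 and 409 CPM with TCDD, against 3.05, 3.29 and 3.30 CPM with DMSO. The log2 fold change was 7.05 ± 0.063 SE (adjusted p = 5.5e-42). Of 18 tested members of a list of established AHR targets, 15 rose and 2 fell. AHR itself was at 176, 176 and 194 CPM in the TCDD libraries and 188, 203 and 195 CPM in the DMSO libraries, with a log2 fold change of -0.10 ± 0.039 SE (adjusted p = 0.11), and at -0.18 with a call once the trends of GC content and length were removed (adjusted p = 1.5e-04). ARNT, its partner, had a log2 fold change of -0.015 ± 0.051 SE (adjusted p = 0.90), and was not called either.

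Promoters of 4 genes outside the classical set that the results below turn on are shown beside that of CYP1A1, because they let the letters of the AHR core be seen where the reads rose. Each runs from 250 bases before to 50 bases after the RefSeq transcript start on GRCh38.p14 (the hg38 assembly), 5′ to 3′ on the gene's strand, in lower case with the core GCGTG, or CACGC where it is on the other strand, in capitals. They lie at chr15:74725479-74725778 (minus strand) for CYP1A1, chr15:74695975-74696274 (minus strand) for EDC3, chr3:4493098-4493397 (plus strand) for ITPR1, chr6:47042283-47042582 (minus strand) for ADGRF1 and chr4:15938691-15938990 (minus strand) for FGFBP1.
CYP1A1: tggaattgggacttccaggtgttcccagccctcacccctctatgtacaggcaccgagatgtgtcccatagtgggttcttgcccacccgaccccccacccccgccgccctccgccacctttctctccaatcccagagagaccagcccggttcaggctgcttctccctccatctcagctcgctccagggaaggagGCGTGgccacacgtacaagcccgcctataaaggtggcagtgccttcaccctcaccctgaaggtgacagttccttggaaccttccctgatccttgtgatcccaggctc
EDC3: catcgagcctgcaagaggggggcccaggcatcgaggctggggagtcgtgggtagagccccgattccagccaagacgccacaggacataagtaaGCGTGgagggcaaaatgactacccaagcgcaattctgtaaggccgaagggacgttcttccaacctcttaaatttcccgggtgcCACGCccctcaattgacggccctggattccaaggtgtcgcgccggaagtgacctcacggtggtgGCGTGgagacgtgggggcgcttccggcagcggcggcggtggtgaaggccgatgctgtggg
ITPR1: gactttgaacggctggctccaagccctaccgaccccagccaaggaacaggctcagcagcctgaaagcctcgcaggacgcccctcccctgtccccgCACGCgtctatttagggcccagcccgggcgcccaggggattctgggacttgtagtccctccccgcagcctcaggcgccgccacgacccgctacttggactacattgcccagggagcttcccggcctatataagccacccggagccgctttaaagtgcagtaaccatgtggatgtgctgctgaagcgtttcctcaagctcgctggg
ADGRF1: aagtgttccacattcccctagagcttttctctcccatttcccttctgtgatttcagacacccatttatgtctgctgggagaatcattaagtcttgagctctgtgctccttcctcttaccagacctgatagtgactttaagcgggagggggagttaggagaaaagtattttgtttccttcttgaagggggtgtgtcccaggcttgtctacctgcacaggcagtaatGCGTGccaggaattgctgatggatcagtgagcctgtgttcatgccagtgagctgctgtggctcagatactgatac
FGFBP1: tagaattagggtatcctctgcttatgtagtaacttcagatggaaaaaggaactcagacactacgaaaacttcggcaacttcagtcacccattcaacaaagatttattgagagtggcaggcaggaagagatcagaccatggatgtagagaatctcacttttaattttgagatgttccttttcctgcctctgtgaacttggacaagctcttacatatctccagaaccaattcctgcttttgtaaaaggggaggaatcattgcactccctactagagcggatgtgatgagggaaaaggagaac

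EDC3 held the core 3 times, CYP1A1, ITPR1 and ADGRF1 once each and FGFBP1 had 0 matches in this window. Over all genes the share of promoters with the core was close among rises and tested genes. It was in 31 of 64 promoters (48.4%) of genes at least 1.5-fold higher, in 330 of 666 (49.6%) of all called higher, in 355 of 644 (55.1%) of those called lower and in 5460 of 10776 (50.7%) of all tested genes with a promoter in the table. The longer TNGCGTG, which contains the core, was in 9 of 64 promoters (14.1%) of the genes at least 1.5-fold higher and in 787 of 10776 (7.30%) of all tested. It was in 59 of 666 (8.86%) of all called higher and in 40 of 644 (6.21%) of those called lower. Among genes that kept their call in every setting it was in 25 of 286 rises (8.74%) and 16 of 169 falls (9.47%). Both letter strings were searched on both strands, and a match is a description of the letters and not a shown binding site.

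Among surface receptors and intracellular signalling genes, the rises were led by ADGRF1 and ITPR1. ADGRF1, an adhesion G protein-coupled receptor (chromosome 6, 46997708 to 47042350), had 17.8, 17.9 and 19.1 CPM with TCDD, against 2.82, 3.36 and 3.85 CPM with DMSO, a log2 fold change of 2.44 ± 0.11 SE (adjusted p = 1.1e-18). The 3 TCDD libraries were close together and all far above the highest DMSO library. ITPR1, the inositol trisphosphate-gated calcium channel of the endoplasmic reticulum (chromosome 3, 4493345 to 4847506), had 14.2, 12.1 and 12.6 CPM in the TCDD libraries and 3.85, 3.33 and 3.89 CPM in the DMSO libraries, with a log2 fold change of 1.81 ± 0.11 SE (adjusted p = 1.6e-14). Here too no library of one group reached the other, which the choice of the 24 largest rises required of both genes. ATP2A2, the pump that returns calcium to the same store, rose by less, with 993, 956 and 946 CPM with TCDD, against 862, 832 and 837 CPM with DMSO (log2 fold change 0.19 ± 0.034 SE, adjusted p = 1.2e-04). Of 49 tested genes of phosphoinositide, calcium and cyclic nucleotide signalling, 7 rose and 1 fell, with a median log2 fold change of -0.018. With the trends of GC content and length removed 4 rose and 2 fell.

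Further signalling genes rose by 1.5-fold or more, of which GNAI1, VIPR1 and KSR2 were named after their values were seen and GRIN2A and GLI2 by rule. GNAI1, an inhibitory G protein alpha subunit, had 30.1, 30.2 and 31.0 CPM in the TCDD libraries and 15.9, 15.9 and 18.1 CPM in the DMSO libraries (log2 fold change 0.87 ± 0.062 SE, adjusted p = 7.4e-13). VIPR1, a receptor of vasoactive intestinal peptide, had 54.6, 53.1 and 51.9 CPM with TCDD, against 31.2, 33.8 and 36.3 CPM with DMSO (log2 fold change 0.65 ± 0.051 SE, adjusted p = 5.3e-12). In both genes every TCDD library was above every DMSO library. KSR2, a scaffold of the RAF and MEK kinases, averaged 19.7 CPM with TCDD and 11.6 CPM with DMSO (log2 fold change 0.76 ± 0.076 SE, adjusted p = 3.0e-09), and its groups did not overlap. GRIN2A, an NMDA-type glutamate receptor subunit, was at low level, with 1.55, 2.18 and 2.06 CPM in the TCDD libraries and 1.33, 0.759 and 0.918 CPM in the DMSO libraries (log2 fold change 0.94 ± 0.24 SE, adjusted p = 0.0072). GLI2, the transcription factor of Hedgehog signalling, was likewise low, with 2.12, 2.14 and 2.34 CPM with TCDD, against 1.14, 0.796 and 1.10 CPM with DMSO (log2 fold change 1.12 ± 0.21 SE, adjusted p = 3.4e-04).

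Factors that act on messenger RNA rose in part. EDC3, an enhancer of mRNA decapping (chromosome 15, 74630558 to 74696292), had 137, 136 and 141 CPM in the TCDD libraries and 77.5, 76.5 and 77.9 CPM in the DMSO libraries. The log2 fold change was 0.84 ± 0.036 SE (adjusted p = 2.9e-19), and all TCDD libraries were far above all DMSO libraries. CYP1A1 (chromosome 15, 74719542 to 74725536) lies upstream of EDC3 on the same minus strand, and whether RNA that ran past the end of CYP1A1 was counted on EDC3 was not tested. NANOS1, an RNA-binding translational repressor, had 38.3, 42.9 and 37.6 CPM with TCDD, against 21.2, 19.2 and 21.4 CPM with DMSO (log2 fold change 0.94 ± 0.059 SE, adjusted p = 2.0e-14). The 2 groups did not overlap for either gene, a condition for NANOS1, which is among the 24 largest rises. SMG1, the kinase of nonsense-mediated decay, had 132, 144 and 166 CPM in the TCDD libraries and 106, 115 and 113 CPM in the DMSO libraries, with TCDD replicate 3 the highest (log2 fold change 0.40 ± 0.055 SE, adjusted p = 2.0e-06). Of 47 tested mRNA decay factors 11 rose and 5 fell, with a median of 0.035, and with the trends removed 3 rose and 6 fell. EDC3 and SMG1 kept their call in every setting.

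Genes of the cytoskeleton, the matrix and the cell surface changed in both directions, and those that rose are given first. SCIN, a calcium-dependent actin-severing protein, had 28.2, 26.3 and 28.1 CPM with TCDD, against 12.9, 14.1 and 14.8 CPM with DMSO (log2 fold change 0.98 ± 0.068 SE, adjusted p = 2.9e-13). TPPP, a tubulin-binding protein, had 6.47, 8.07 and 6.82 CPM in the TCDD libraries and 3.09, 3.83 and 3.01 CPM in the DMSO libraries (log2 fold change 1.10 ± 0.13 SE, adjusted p = 6.1e-08). The lowest TCDD library of both was above the highest DMSO library, again a condition of the 24 largest rises, which hold both. FGFBP1, a secreted carrier that releases fibroblast growth factors from the matrix, had 68.6, 68.8 and 62.6 CPM with TCDD, against 34.8, 34.9 and 38.3 CPM with DMSO (log2 fold change 0.89 ± 0.05 SE, adjusted p = 8.1e-16). CEMIP, which takes part in hyaluronan breakdown, had 499, 489 and 496 CPM in the TCDD libraries and 336, 352 and 353 CPM in the DMSO libraries (log2 fold change 0.51 ± 0.039 SE, adjusted p = 4.7e-12). The level of both with TCDD varied little between libraries. FAT1, an atypical cadherin, had 2282, 2344 and 2501 CPM with TCDD, against 1869, 1753 and 1745 CPM with DMSO (log2 fold change 0.41 ± 0.043 SE, adjusted p = 8.1e-09), with TCDD replicate 3 the highest. MEGF6, a protein with EGF-like repeats, had 18.8, 21.3 and 19.0 CPM in the TCDD libraries and 10.7, 10.1 and 10.8 CPM in the DMSO libraries (log2 fold change 0.90 ± 0.076 SE, adjusted p = 4.4e-11). ST3GAL4, a sialyltransferase named after its values were seen, had 36.1, 37.6 and 36.3 CPM with TCDD, against 21.5, 22.2 and 23.8 CPM with DMSO (log2 fold change 0.71 ± 0.055 SE, adjusted p = 5.8e-12), and its groups did not overlap.

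Solute carriers changed in both directions. SLC5A3, the sodium-coupled myo-inositol carrier, had 138, 138 and 142 CPM in the TCDD libraries and 97.1, 91.4 and 89.2 CPM in the DMSO libraries (log2 fold change 0.59 ± 0.052 SE, adjusted p = 1.3e-10). SLC6A6, the taurine carrier, had 363, 337 and 349 CPM with TCDD, against 267, 263 and 257 CPM with DMSO (log2 fold change 0.41 ± 0.038 SE, adjusted p = 4.6e-10). Both carriers move small organic osmolytes, and each TCDD library was above each DMSO library. Beside the carriers, GDA, guanine deaminase of purine breakdown, had 212, 202 and 217 CPM in the TCDD libraries and 139, 141 and 139 CPM in the DMSO libraries (log2 fold change 0.59 ± 0.035 SE, adjusted p = 3.6e-15). SORL1, a sorting receptor of the endosome, had 233, 238 and 249 CPM with TCDD, against 169, 167 and 169 CPM with DMSO (log2 fold change 0.51 ± 0.045 SE, adjusted p = 1.3e-10). The groups of both were far apart relative to their spread. SLC4A8, a sodium-driven chloride bicarbonate exchanger, had a log2 fold change of 0.51 ± 0.077 SE (adjusted p = 1.1e-05). SLC16A1, the monocarboxylate carrier, fell, with 800.3, 767 and 764 CPM in the TCDD libraries and 941, 897 and 898 CPM in the DMSO libraries (log2 fold change -0.23 ± 0.033 SE, adjusted p = 4.9e-06). Of 230 tested solute carriers 21 rose and 18 fell (9.13% and 7.83%), with a median of 0.0092, and 10 and 5 of them kept the call in every setting. NOS2, the inducible nitric oxide synthase, was named after its values were seen and had 8.55, 7.51 and 7.48 CPM with TCDD, against 5.30, 4.16 and 5.18 CPM with DMSO (log2 fold change 0.69 ± 0.11 SE, adjusted p = 5.1e-05).

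Several genes with large ratios had few reads, and their ratios are less certain. STMND1, a stathmin domain protein, had 0.448, 0.960 and 0.781 CPM in the TCDD libraries and 0.0381, 0.0723 and 0.110 CPM in the DMSO libraries (log2 fold change 3.21 ± 0.54 SE, adjusted p = 7.9e-05). SLC6A18, an amino acid carrier family member, had 1.55, 0.567 and 0.945 CPM with TCDD, against 0.191, 0.0362 and 0.110 CPM with DMSO (log2 fold change 3.16 ± 0.48 SE, adjusted p = 1.3e-05). The groups were apart in both genes, but each value rested on few reads and the fitted ratio depends on the small level in DMSO. OAS2, an interferon-induced oligoadenylate synthetase, had 2.40, 1.57 and 1.19 CPM in the TCDD libraries and 0.229, 0.506 and 0.587 CPM in the DMSO libraries (log2 fold change 1.95 ± 0.31 SE, adjusted p = 2.7e-05). BMF, a pro-apoptotic protein of the BCL2 family, had 3.50, 3.80 and 3.78 CPM with TCDD, against 1.26, 1.08 and 1.18 CPM with DMSO (log2 fold change 1.65 ± 0.17 SE, adjusted p = 1.1e-08). OAS2 was 1 of 5 genes higher, with 1 lower, among 32 tested interferon-stimulated genes, whose median was 0.041 and of which 2 were higher with the trends removed, and BMF was the 1 gene higher, with 3 lower, among 29 tested BCL2 family members and caspases.

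**Figure D2:**
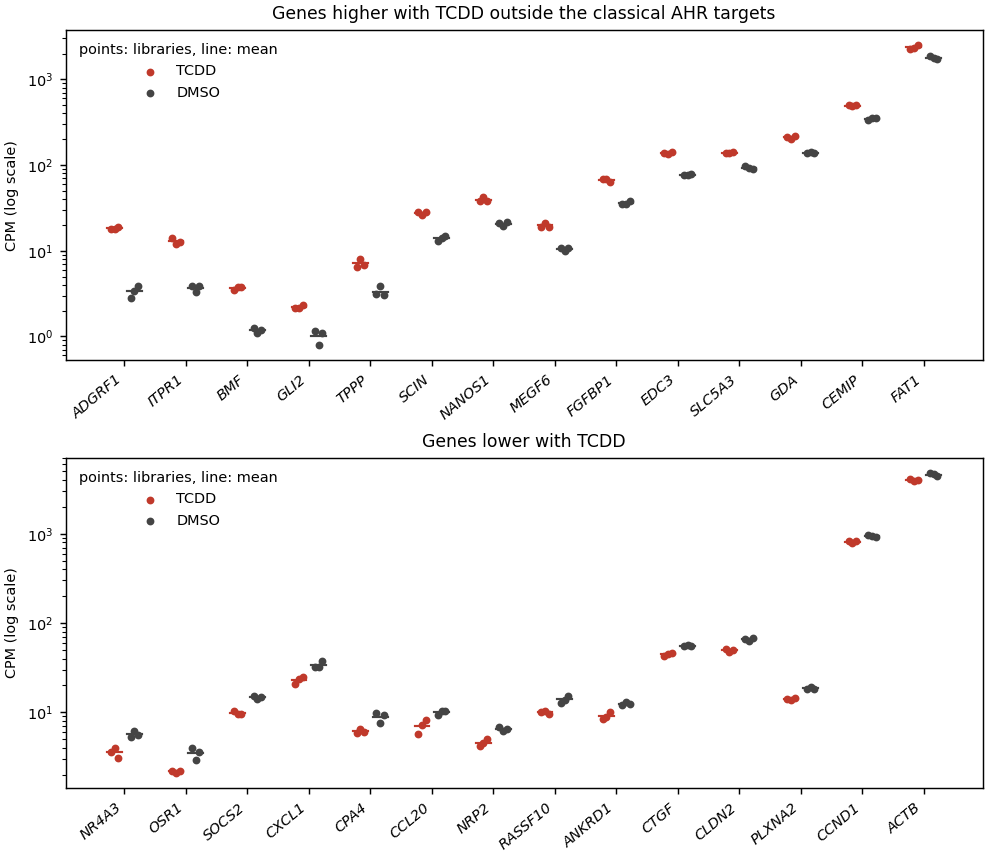
CPM of single libraries (vertical axis, log scale) for 14 genes higher with TCDD outside the classical targets (upper panel) and 14 genes lower with TCDD (lower panel), with the 3 TCDD libraries in red left of the 3 DMSO libraries in grey and a line at each mean. ADGRF1 and ITPR1 show wide gaps between the groups, with log2 fold changes of 2.44 and 1.81, and the gaps of the lower panel are narrower, with -0.69 for NR4A3.

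All 24 of the largest rises named by rule, which run from a log2 fold change of 0.89 to 7.05 at a mean of at least 1 CPM, kept their call in every setting that gave an adjusted p. They included RN7SK and RMRP, the RNA parts of the 7SK and RNase MRP particles, which are not polyadenylated and whose level in poly(A) libraries also follows the selection step. Their highest values were both in TCDD replicate 2, with 7.08, 10.9 and 8.67 CPM in the TCDD libraries and 3.43, 3.29 and 4.22 CPM in the DMSO libraries for RN7SK. RNA18S5, a ribosomal RNA, showed what 1 library can do: it was at 1.79, 11.3 and 1.07 CPM with TCDD, against 98.9, 0.615 and 0.514 CPM with DMSO, and its call as lower (log2 fold change -2.84 ± 0.85 SE) came from DMSO replicate 1, without which the log2 fold change was 3.02.

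Among genes that act on chromatin small rises outnumbered falls. In the 3 lists below 33.3%, 23.9% and 15.2% of the tested members rose, against 5.91% over all tested genes. Their transcripts were long, with medians of 7224, 6700 and 6339 bases. Among all genes with a longest transcript of 6 to 8 kb, 10.5% rose, and 4.54% with the trends removed. At 8 kb or more these shares were 21.6% and 13.1%. Of 36 tested subunits of chromatin remodelling complexes 12 rose, 0 fell by edgeR or DESeq2 and 1 was lower at an unadjusted p under 0.05, with a median log2 fold change of 0.053, and 10 rose and 0 fell with the trends removed. CHD2, a helicase of the CHD family, had 92.0, 97.2 and 101 CPM in the TCDD libraries and 77.4, 80.3 and 78.3 CPM in the DMSO libraries (log2 fold change 0.30 ± 0.044 SE, adjusted p = 7.3e-06), and PBRM1, a bromodomain subunit of the PBAF complex, had a log2 fold change of 0.22 ± 0.04 SE. Of 46 tested histone methyltransferases and demethylases 11 rose and 3 fell, with a median of 0.064. KMT2D, an H3K4 methyltransferase, had 115, 118 and 138 CPM with TCDD, against 88.2, 86.6 and 92.3 CPM with DMSO (log2 fold change 0.47 ± 0.057 SE, adjusted p = 1.9e-07), and KMT2A, KMT2C and ASH1L rose by 0.36, 0.40 and 0.32 on the log2 scale. Of 46 tested acetyltransferases, deacetylases and coregulators 7 rose and 2 fell, and 5 rose and 3 fell with the trends removed. The acetyltransferase EP300 (0.24) and the nuclear receptor coactivators NCOA3 (0.25) and NCOA7 (0.25) were higher. TCDD replicate 3 was the highest of the 6 libraries for KMT2D, KMT2C and CHD2. Reads of that library leaned most towards long transcripts of low GC content, and with the trends removed 8 of the 46 methylation genes rose and 2 fell.

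Growth factor and morphogen genes changed in both directions. Of 11 tested EGF receptor family members and ligands 3 rose and 0 fell by edgeR or DESeq2, with 0 lower at an unadjusted p under 0.05, and the 3 kept their call in every setting. The other 8 were not called, and 9 of the 11 had values above 0. EREG, epiregulin, had 296, 278 and 299.9 CPM in the TCDD libraries and 207, 215 and 218 CPM in the DMSO libraries (log2 fold change 0.45 ± 0.04 SE, adjusted p = 1.3e-10). EGFR, the receptor, had 94.9, 90.3 and 89.5 CPM with TCDD, against 78.3, 82.3 and 77.5 CPM with DMSO (log2 fold change 0.21 ± 0.05 SE, adjusted p = 0.0046). TGFA, another ligand, had 182, 175 and 177 CPM in the TCDD libraries and 155, 160.4 and 165 CPM in the DMSO libraries (log2 fold change 0.15 ± 0.035 SE, adjusted p = 0.0025), and the groups of the 3 genes did not overlap. EREG is also on the list of established AHR targets. In the Wnt pathway 6 of 40 rose and 2 fell. WNT7B, a ligand, had 26.7, 26.4 and 29.0 CPM with TCDD, against 18.9, 18.6 and 21.7 CPM with DMSO (log2 fold change 0.47 ± 0.064 SE, adjusted p = 1.9e-06), LGR5, the R-spondin receptor of intestinal stem cells, had 123, 117 and 113 CPM in the TCDD libraries and 94.1, 99.5 and 94.7 CPM in the DMSO libraries (log2 fold change 0.29 ± 0.038 SE, adjusted p = 1.0e-06), and CCND1, cyclin D1, fell to 822, 790.1 and 828 CPM with TCDD, against 963, 941 and 920.5 CPM with DMSO (log2 fold change -0.21 ± 0.032 SE, adjusted p = 1.7e-05). Among 36 genes of TGF-beta and BMP signalling 7 rose and 4 fell: the ligand TGFB1 fell (-0.25), while BMP4 (0.15) and the receptor BMPR2 (0.26) rose. Among 27 Notch genes 1 rose and 4 fell, and 1 fell with the trends removed, with the ligand JAG1 lower (-0.19) and the ligand JAG2 higher (0.19).

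Cytokine feedback genes split between PIM1 and SOCS2. PIM1, a serine/threonine kinase induced by cytokines, had 43.9, 45.4 and 43.9 CPM in the TCDD libraries and 30.8, 28.5 and 29.0 CPM in the DMSO libraries (log2 fold change 0.59 ± 0.051 SE, adjusted p = 7.1e-11). SOCS2, a suppressor of cytokine and growth hormone signalling, had 10.3, 9.52 and 9.58 CPM with TCDD, against 15.2, 14.1 and 14.9 CPM with DMSO (log2 fold change -0.59 ± 0.076 SE, adjusted p = 7.7e-07). In both genes the groups were apart, in opposite directions, a condition for SOCS2, which is among the 24 largest falls. LIF, an IL-6 family cytokine, rose (0.38) as did IL6ST, the receptor subunit that it uses (0.20). Of 30 tested genes of cytokine receptors, SOCS and PIM 5 rose and 1 fell, and 5 rose and 2 fell with the trends removed.

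Intestinal identity genes and nuclear receptors held a few sizeable rises. CDX2, the homeobox factor of intestinal fate, had 160.0, 168 and 159 CPM in the TCDD libraries and 123, 119.6 and 124 CPM in the DMSO libraries (log2 fold change 0.41 ± 0.036 SE, adjusted p = 1.3e-10). CDH17, the liver-intestine cadherin, had 135, 129.8 and 128 CPM with TCDD, against 96.7, 103 and 102 CPM with DMSO (log2 fold change 0.38 ± 0.043 SE, adjusted p = 4.0e-08). Their groups did not overlap, while the list of 14 tested identity genes as a whole had 2 higher and 2 lower and a median of -0.086, with CDH1 (-0.13) and KRT18 (-0.12) lower. With the trends removed 2 were higher and 1 lower, and KRT18 was not called (adjusted p = 0.068). KRT18 also lost its call without TCDD replicate 2 or 3 or DMSO replicate 1 or 3 (adjusted p up to 0.14). PROX1, a homeobox factor named after its values were seen, had 16.4, 16.5 and 15.4 CPM in the TCDD libraries and 9.46, 11.6 and 9.65 CPM in the DMSO libraries (log2 fold change 0.65 ± 0.08 SE, adjusted p = 3.0e-07). Of 27 tested nuclear receptors 6 rose and 3 fell. PPARA, a fatty acid sensor, had 26.5, 25.1 and 25.8 CPM with TCDD, against 20.5, 19.2 and 18.3 CPM with DMSO (log2 fold change 0.42 ± 0.064 SE, adjusted p = 1.5e-05), PPARG was 0.31 higher and RARG, a retinoic acid receptor, was 0.29 higher on the log2 scale. Retinoid genes as a list had 3 higher and 2 lower of 20, with ALDH1A3 (1.72) and RARRES2 (0.33) rising beside RARG, and 3 higher and 0 lower with the trends removed.

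DDIT4 and GDF15 rose, while the lists of stress genes held changes in both directions. DDIT4, an inhibitor of mTORC1 signalling, had 75.8, 80.6 and 75.4 CPM in the TCDD libraries and 52.2, 50.1 and 52.2 CPM in the DMSO libraries (log2 fold change 0.58 ± 0.045 SE, adjusted p = 4.7e-12). GDF15, a stress-induced hormone, had 344, 352 and 322 CPM with TCDD, against 258, 240.4 and 261 CPM with DMSO (log2 fold change 0.42 ± 0.036 SE, adjusted p = 8.1e-11). For both, every TCDD library was above every DMSO library, and both kept the call in every setting. PPP1R15A, a phosphatase subunit that reverses eIF2alpha phosphorylation, had 79.9, 84.6 and 79.2 CPM in the TCDD libraries and 63.7, 63.5 and 61.8 CPM in the DMSO libraries (log2 fold change 0.37 ± 0.042 SE, adjusted p = 7.5e-08). Of 31 tested genes of the integrated stress and unfolded protein responses 7 rose and 4 fell, with a median of 0.024, and 5 rose and 3 fell with the trends removed. PHGDH, of serine synthesis, was among those that fell (-0.18). Of 27 tested p53 target genes, a list that holds GDF15, 3 rose and 3 fell, with a median of -0.0025, and 1 rose and 3 fell with the trends removed. Of 27 tested NRF2 and glutathione genes 7 rose and 2 fell, 6 and 1 of them in every setting. NFE2L2, which encodes NRF2 itself, had 219.7, 217 and 229 CPM with TCDD, against 185, 190.0 and 180.0 CPM with DMSO (log2 fold change 0.26 ± 0.034 SE, adjusted p = 1.1e-06), and the cystine carrier SLC7A11 (0.37) and the ferritin chain FTH1 (0.16) rose.

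Falls were smaller, and those at low level were less secure. Of the 24 largest falls named by rule, from -0.99 to -0.44, 14 kept their call in every setting that gave an adjusted p and 14 with each of the 6 libraries left out in turn. NR4A3, an orphan nuclear receptor of the immediate-early genes, had 3.58, 4.01 and 3.08 CPM in the TCDD libraries and 5.30, 6.22 and 5.62 CPM in the DMSO libraries (log2 fold change -0.69 ± 0.13 SE, adjusted p = 5.1e-04). OSR1, a zinc finger developmental factor, had 2.20, 2.10 and 2.22 CPM with TCDD, against 3.93, 2.93 and 3.56 CPM with DMSO (log2 fold change -0.67 ± 0.15 SE, adjusted p = 0.0019). CPA4, a secreted carboxypeptidase, had 5.82, 6.46 and 6.08 CPM in the TCDD libraries and 9.73, 7.52 and 9.32 CPM in the DMSO libraries (log2 fold change -0.53 ± 0.12 SE, adjusted p = 0.0019). The highest TCDD library lay under the lowest DMSO library in each of the 3, as the choice of the 24 largest falls required. NRP2, a co-receptor of semaphorins and VEGF, had 4.23, 4.50 and 5.01 CPM with TCDD, against 6.83, 6.15 and 6.42 CPM with DMSO (log2 fold change -0.50 ± 0.11 SE, adjusted p = 0.0027). RASSF10, a Ras association domain protein, had 10.1, 10.2 and 9.49 CPM in the TCDD libraries and 12.8, 13.9 and 15.2 CPM in the DMSO libraries (log2 fold change -0.49 ± 0.079 SE, adjusted p = 3.3e-05). SNPH, which anchors mitochondria to microtubules, had a log2 fold change of -0.47 ± 0.086 SE. Of the falls whose call ended with a library left out, FGF20 (-0.99) lost it without TCDD replicate 1 or 3 (adjusted p up to 0.10) and AUTS2 (-0.54) without TCDD replicate 3 or DMSO replicate 2 (up to 0.07). NPAS1, FAM81A, ADORA1, RNF122, LTBP4, KIF17, RASGRP1 and PRR5L were others whose call ended with at least 1 library left out, with the highest adjusted p at 0.16, 0.10, 0.13, 0.14, 0.17, 0.12, 0.28 and 0.052 in that order.

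Among chemokines, NF-kB and TNF signalling genes most calls were falls: 10 of 34 fell and 2 rose, with a median log2 fold change of -0.069, and 8 and 1 with the trends removed. The 10 falls were 29.4% of the list, against 5.83% over all tested genes. CXCL1, a neutrophil chemokine, had 21.0, 23.7 and 24.8 CPM with TCDD, against 31.8, 32.0 and 37.4 CPM with DMSO (log2 fold change -0.54 ± 0.065 SE, adjusted p = 1.4e-07). CCL20, a chemokine of the gut epithelium, had 5.66, 7.25 and 8.10 CPM in the TCDD libraries and 9.31, 10.2 and 10.4 CPM in the DMSO libraries (log2 fold change -0.51 ± 0.1 SE, adjusted p = 6.0e-04). CXCL8, the IL-8 chemokine, had 51.5, 54.2 and 51.0 CPM with TCDD, against 58.0, 62.0 and 63.1 CPM with DMSO (log2 fold change -0.23 ± 0.044 SE, adjusted p = 5.5e-04). In these 3 genes all TCDD libraries were under all DMSO libraries, a condition for CXCL1 and CCL20, which are among the 24 largest falls. BIRC3, an inhibitor of apoptosis and NF-kB target, went the other way, with 42.9, 41.7 and 43.8 CPM in the TCDD libraries and 31.9, 30.8 and 32.1 CPM in the DMSO libraries (log2 fold change 0.44 ± 0.049 SE, adjusted p = 3.4e-08). Of 32 immediate-early genes 6 fell and 2 rose, also with the trends removed, and 2 of the falls and the 2 rises kept their call in every setting. The falls were 18.8% of the list, against 5.83% over all tested genes. Among all tested genes of 55 to 60% GC, where the list's median of 55.6% lies, 11.2% were lower. IER3 had 177, 181 and 179 CPM with TCDD, against 139, 136 and 138 CPM with DMSO (log2 fold change 0.38 ± 0.037 SE, adjusted p = 1.3e-09) and FOSL2 was 0.27 higher, while CTGF, a target of YAP and SRF, had 42.4, 44.9 and 46.7 CPM in the TCDD libraries and 54.7, 56.7 and 55.9 CPM in the DMSO libraries (log2 fold change -0.32 ± 0.051 SE, adjusted p = 3.1e-05). ANKRD1, another YAP target, fell with it (-0.44), although the list of 26 YAP targets and Hippo kinases had 3 higher and 4 lower.

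Actin, junction and guidance genes held more falls than rises. Of 50 tested actin regulators 12 fell and 4 rose, with a median of -0.051, and 14 fell and 4 rose with the trends removed. ACTB, cytoplasmic beta-actin, had 4066, 3854 and 4014 CPM with TCDD, against 4765, 4621 and 4407 CPM with DMSO (log2 fold change -0.21 ± 0.036 SE, adjusted p = 1.0e-04). MYO10, an unconventional myosin (0.18), was, with SCIN, among the members that rose. FSCN1, the bundling protein fascin, which was named for its level, had 176, 168 and 176 CPM in the TCDD libraries and 219, 201 and 203 CPM in the DMSO libraries (log2 fold change -0.26 ± 0.036 SE, adjusted p = 3.1e-06). Of 33 tested junction genes 7 fell and 2 rose, and 5 fell and 1 rose with the trends removed. CLDN2, a pore-forming claudin of leaky epithelia, had 51.5, 47.9 and 49.9 CPM with TCDD, against 65.7, 63.1 and 68.6 CPM with DMSO (log2 fold change -0.40 ± 0.045 SE, adjusted p = 3.8e-08), with all TCDD libraries under all DMSO libraries, and GJB2, a connexin, was lower (-0.16). Of 40 semaphorins, plexins, ephrins and EPH receptors 8 fell and 1 rose, and 9 fell and 1 rose with the trends removed. The median GC content of that list was 59.8%, and among all tested genes of 55 to 60% GC 11.2% were lower. PLXNA2, a semaphorin receptor, had 14.2, 13.8 and 14.6 CPM in the TCDD libraries and 18.2, 19.2 and 18.3 CPM in the DMSO libraries (log2 fold change -0.39 ± 0.069 SE, adjusted p = 1.6e-04), the receptors EPHB6 (-0.21) and EPHB4 (-0.17) fell, the second without a call when TCDD replicate 3 was left out, and the ligand EFNA1 rose (0.30). Among integrins, matrix and matrix proteases 5 of 35 rose and 2 fell, and 3 rose and 3 fell with the trends removed, with MMP15 higher (0.29) and LAMB3 lower (-0.22).

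In housekeeping lists falls outnumbered rises, each of small size. Of 33 hypoxia and glycolysis genes 7 fell and 1 rose, with a median of -0.055. ENO1, the glycolytic enolase, had 2315, 2265 and 2236 CPM with TCDD, against 2564, 2412 and 2518 CPM with DMSO (log2 fold change -0.14 ± 0.03 SE, adjusted p = 0.0020), GPI fell too (-0.16), and the 1 that rose was DDIT4. HIF1A, which encodes the hypoxia factor, rose slightly (0.19). Of 58 SR and hnRNP splicing factors 9 fell and 1 rose, of 60 translation factors 9 fell and 1 rose, of 78 mitochondrial ribosomal proteins 8 fell and 2 rose, and of 83 respiratory chain and ATP synthase subunits 6 fell and 1 rose. The falls were 15.5%, 15.0%, 10.3% and 7.23% of these lists in that order, against 5.83% over all tested genes. The last 2 lists had median transcripts of 1723 and 1487 bases, and among all transcripts under 2 kb 7.37% were lower. The share of the respiratory chain list lay near both values. EEF2, the elongation factor of translocation, had 3678, 3569 and 3515 CPM in the TCDD libraries and 4025, 3906 and 4015 CPM in the DMSO libraries (log2 fold change -0.15 ± 0.031 SE, adjusted p = 9.2e-04). Of these falls, 2 splicing factors, 3 translation factors, 1 mitochondrial ribosomal protein and 2 respiratory chain subunits kept their call in every setting. Of 81 cytoplasmic ribosomal proteins 16 fell and 0 rose by edgeR, 11 fell and 0 rose by DESeq2, and 28 were lower and 0 higher at an unadjusted p under 0.05. Of the 16, 2 kept their call in every setting, and the list stood at a median of -0.066 beside 0.00084 over all tested genes, and 16 fell with the trends removed.

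Among genes of ubiquitin removal and zinc finger genes the counts changed with the removal of the trends. Of 57 tested deubiquitinases 8 rose and 1 fell, against 1 and 0 with the trends removed, and of 394 ZNF genes 24 rose and 5 fell, against 9 and 1. The 24 ZNF genes are 6.09% of those tested, near the 5.91% over all tested genes.

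**Figure D3:**
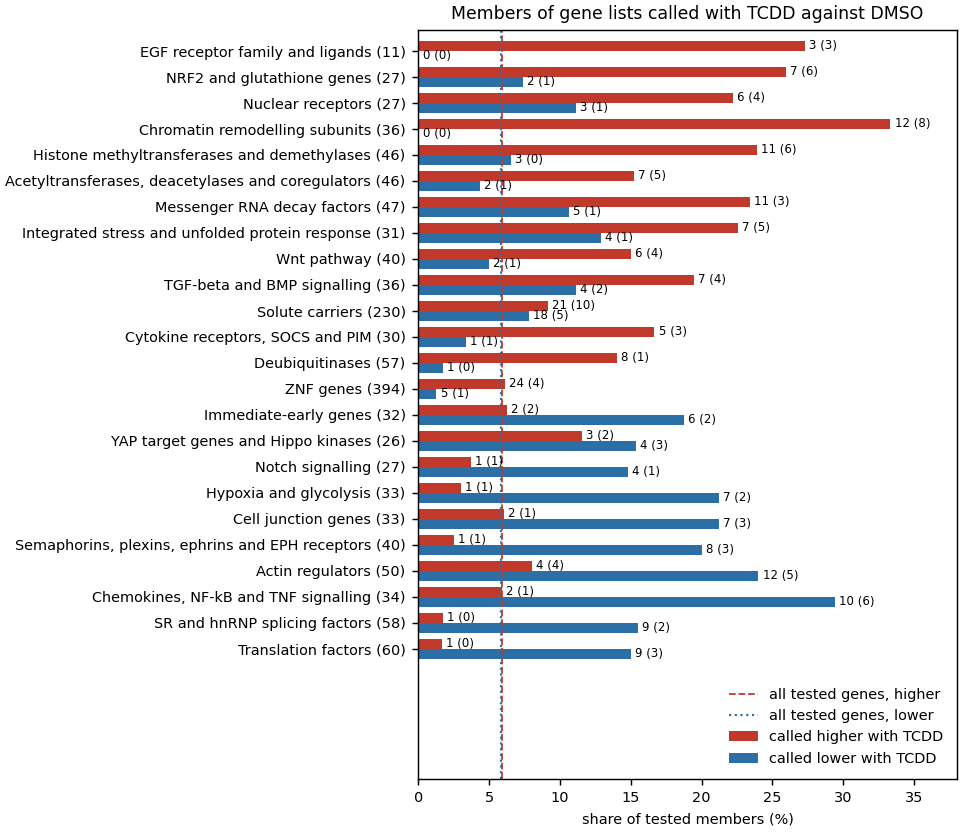
Share of the tested members (horizontal axis, %) called higher with TCDD (red) or lower (blue) in 24 gene lists, with the number tested after each name and the number called beside each bar. In brackets is the number that kept the call in every setting that gave an adjusted p. Lines mark the shares over all tested genes of any transcript length, 5.91% higher (dashed) and 5.83% lower (dotted). Chromatin remodelling subunits reach 33.3% higher and chemokines, NF-kB and TNF signalling genes 29.4% lower, while solute carriers, at 9.13% higher and 7.83% lower, lie nearer to the lines.

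Measured in reads instead of ratios, the summed gain of the 805 genes called higher was 13730 CPM, and the 794 called lower summed to -13290 CPM. Such a sum grows with the length and abundance of a transcript. The largest gains were those of FAT1, CYP1B1, CYP1A1 and the chaperone HSP90AA1. HSP90AA1 had 5534, 5388 and 5637 CPM with TCDD, against 4931, 5064 and 5327 CPM with DMSO (log2 fold change 0.11 ± 0.031 SE, adjusted p = 0.013), but its call ended without TCDD replicate 3 or DMSO replicate 1 and with the trends removed. HSPA5, the chaperone of the endoplasmic reticulum, had 1739, 1628 and 1655 CPM in the TCDD libraries and 1516, 1421 and 1560 CPM in the DMSO libraries and kept its call in every setting (log2 fold change 0.16 ± 0.034 SE, adjusted p = 0.0013). The losses were led by ACTB and EEF2. Of the 12 genes with the largest gain 8 kept their call in every setting, and of the 12 with the largest loss 6 did.

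The small calls followed GC content and length of the transcripts. Among genes whose longest transcript had at least 60% GC, 2.33% were higher and 16.4% lower with TCDD, and among those under 40% GC, 11.2% were higher and 0.924% lower. Among transcripts of 8 kb or more 21.6% were higher and 2.3% lower, and among those under 2 kb 1.59% were higher and 7.37% lower. Genes called higher had a median transcript of 6441 bases, 42.9% GC and 14 exons, those called lower 3085 bases, 57.9% GC and 7 exons, and all tested genes 3814 bases, 48.0% GC and 8 exons. On chromosome 19, which is rich in short genes of high GC content, 13 of 868 tested genes were higher and 137 lower. Relative to the mean of the DMSO libraries, log2 CPM changed per 10 points of GC by -0.048, -0.029 and -0.068 in the TCDD libraries, against 0.0135, -0.015 and 0.0012 in the DMSO libraries. CH223191 replicate 3, at -0.033, was steeper than TCDD replicate 2. Per doubling of length the change was 0.028, 0.021 and 0.043 with TCDD, and -0.015, 0.018 and -0.0029 with DMSO. It was 0.023 in CH223191 replicate 1 and -0.046 in kynurenine replicate 1. The steepest GC slope was in TCDD replicate 3, without which 805 genes were called. With the trends removed 1265 genes were called, and 1002 of the 1599 were among them, but part of the excess of rises among the longest transcripts remained, at 13.1% higher and 4.99% lower.

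**Figure D4:**
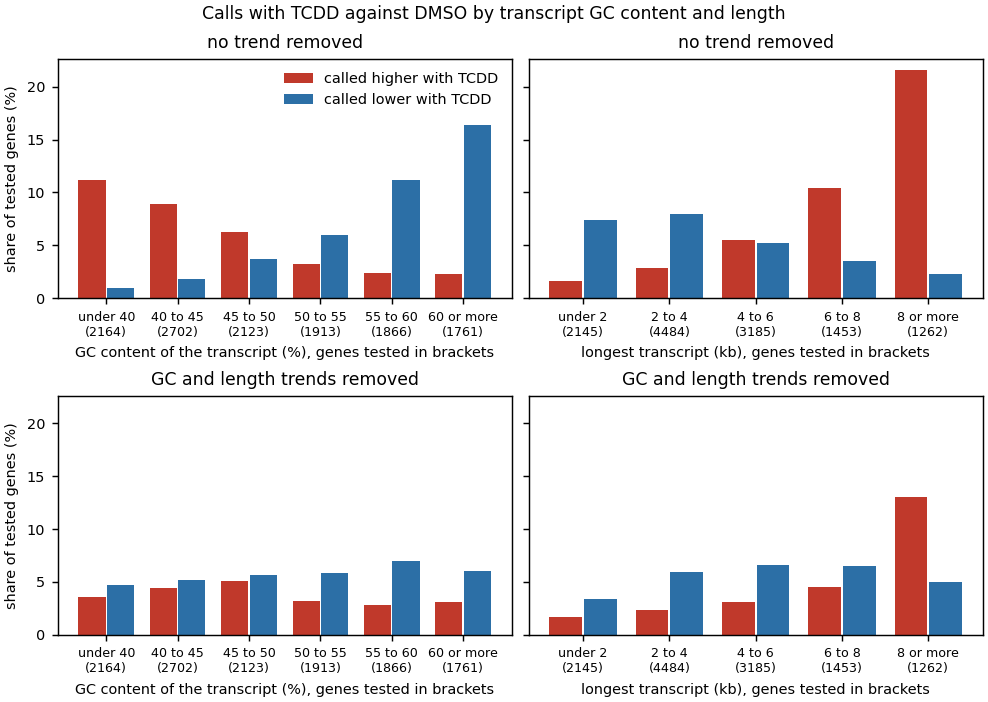
Share of tested genes called higher (red) or lower (blue) with TCDD (vertical axis, %) by GC content (left panels) and by length of the longest transcript (right panels), without removal of trends (upper panels) and with it (lower panels), with the number of tested genes in brackets. The slopes of the upper panels, up to 16.4% lower at high GC and 21.6% higher at 8 kb or more, are mostly gone below except for the longest transcripts.

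The large rises leaned less that way. Genes at least 1.5-fold higher had a median GC content of 48.5% and a median transcript of 4040 bases, and 79 genes were called at least 1.5-fold higher once the trends were removed, against 86 without that step. All 24 of the largest rises and 21 of the 24 largest falls named by rule stayed called.

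The 6 libraries that had neither TCDD nor DMSO gave a separate look at the same genes, as kynurenine, a weak endogenous agonist, against CH223191. In that contrast 33% of tested genes were called, so a call there is common and is given as a description. Of the 86 genes at least 1.5-fold higher with TCDD, 64 (74.4%) were also higher with kynurenine than with CH223191, 38 of them with a call. Of the other members of the 86, 3 had a call in the opposite direction. Of all 805 called higher 480 (59.6%) had the same direction, of the 794 called lower 285 (35.9%), and 49.2% of all tested genes. ADGRF1, ITPR1 and FGFBP1 were higher with kynurenine than with CH223191 by 2.06, 1.39 and 1.44 on the log2 scale. SCIN, GDA and NANOS1 were higher by 0.77, 0.58 and 0.50. A difference in this contrast can come from kynurenine, from CH223191 or from both. Against DMSO, SCIN was at 0.61 with kynurenine and -0.16 with CH223191, FGFBP1 at 0.28 and -1.15, and NANOS1 at -0.085 and -0.585. CYP1B1 was at -0.37 and -1.33 in the same order. BMF, TPPP, CEMIP and GLI2 were not called there, at -0.018 (adjusted p = 0.96), 0.12 (0.57), -0.021 (0.73) and -0.019 (0.96). DDIT4 went the other way, at -2.27, and was 2.39 higher with CH223191 than with DMSO. Among the falls, SOCS2, CXCL1 and CCL20 were lower with kynurenine than with CH223191 by fitted values of -0.48, -0.28 and -0.62, whereas CLDN2, CCND1 and ACTB were higher at 0.20, 0.23 and 0.17. Against DMSO, SOCS2, CXCL1 and CCL20 were at -0.030, -0.023 and 0.041 with kynurenine and at 0.45, 0.25 and 0.66 with CH223191.

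**Figure D5:**
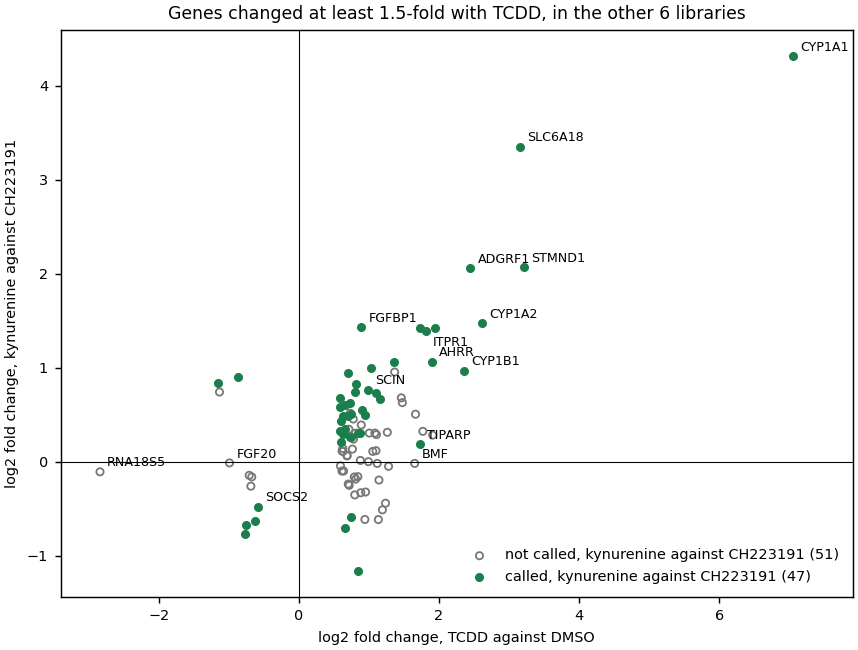
Log2 fold change of kynurenine against CH223191 (vertical axis) by that of TCDD against DMSO (horizontal axis) for the 98 genes called and changed at least 1.5-fold with TCDD, filled where the vertical contrast was called. The 2 contrasts share no library. Of the 86 points right of 0, 64 lie above 0, with CYP1A1 at 4.32, SLC6A18 at 3.35, STMND1 at 2.07 and ADGRF1 at 2.06.

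The direct test of TCDD against kynurenine, which shares the TCDD libraries with the main comparison, called 1252 genes (9.19%), and 576 without TCDD replicate 3. Of the 86 genes at least 1.5-fold higher with TCDD than with DMSO, 58 were called in it. ADGRF1 was 1.60 higher on the log2 scale with TCDD than with kynurenine (adjusted p = 2.0e-14), EDC3 was 0.82 higher (5.2e-19), NANOS1 1.02 (2.7e-15) and BMF 1.72 (5.4e-09). Set beside DMSO, whose libraries the contrasts share, ADGRF1 was at 2.44 with TCDD and at 0.85 with kynurenine, ITPR1 at 1.81 and 0.96, SCIN at 0.98 and 0.61, EDC3 at 0.84 and 0.014, and CEMIP at 0.51 and -0.22.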

How the data were processed

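Polyadenylated RNA of DLD1 cells was sequenced in 12 libraries, 3 each with TCDD, kynurenine, CH223191 and DMSO. The authors deposited raw read counts per gene, 1 file per library. Reads were trimmed with Trim Galore, aligned to hg38 with STAR 2.7.2b, sorted with SAMtools 1.9 and counted with HTSeq, per the submitters' processing notes; the protocol in the labels names another STAR version. Whether counting used strand is not given in the sources used here, so reads of a gene and of an overlapping antisense gene cannot be told apart, and reads shared by near-identical copies were not counted on either, since reads with more than 1 alignment were kept apart.

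From the deposited counts, genes passing filterByExpr with a minimum count of 10 (13619 of 26485) were fitted with edgeR 4.0.16 in R 4.3.3 (TMM factors of 0.988 to 1.02, all 12 libraries, 1 mean per group, quasi-likelihood test, Benjamini-Hochberg adjustment over all tested genes). A call is an adjusted p under 0.05, and SE is the fold change over the root of the F statistic. The common biological coefficient of variation was 3.22%. Rows for reads on no gene stayed out of totals and tests; reads on no feature made up 7.33% of reads with TCDD and 7.94% with DMSO. GC content and length came from GENCODE 44 gene models, which 92% of tested genes had, and promoters from a RefSeq table that matched 17472 symbols. The procedure was tested on simulated data.

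Alternatives were other scaling factors, other low-count filters, DESeq2 1.42.0, only the groups compared, the replicate number as a block, trends of GC content and length removed, and each of the 6 libraries left out. "In every setting" covers 13 of them, without the 5 CPM filter. A setting that gave a gene no adjusted p, as DESeq2 did for some, was not counted as a lost call. Libraries with the same number did not deviate together: correlations of deviations from group means were -0.0554 to 0.0371 over 18 pairs with the same number and -0.0528 to 0.0832 over 36 other pairs. The chi-square per gene of library pairs of 1 group was 1.80 to 4.94, above sampling noise, so none was counted as a repeat.

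Genes were named by a rule: among called genes, the 24 largest rises and falls at a mean of at least 1 CPM with groups that do not overlap, the 12 largest gains and losses of CPM, the 10 largest changes each way at 100 CPM or more, up to 4 members of smallest p of a described list, the 8 each way with the largest change also called in the same direction between kynurenine and CH223191, and a check set of 6 genes. Genes outside it are said to be named after their values were seen. The comparison, the gene lists and the alternatives were chosen with earlier results of these data known.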

Additional observations from a re-analysis of the deposited data

Results flagged for a closer look

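Among reads that were not counted on genes, 2 classes took a larger share in the TCDD libraries than in the DMSO libraries, without overlap of the groups. Reads with more than 1 alignment made up 3.51% ± 0.348 with TCDD and 2.90% ± 0.236 with DMSO (SD, n = 3 each), and the two-sided exact permutation test gave p = 0.1, the smallest that 3 against 3 allows. Reads without an alignment made up 9.75% ± 0.276 with TCDD and 9.16% ± 0.31 with DMSO (SD, n = 3 each; two-sided exact permutation p = 0.1). Their part in the results on genes was not tested.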

How the results depend on the processing

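Scaling by RLE factors (1593 genes called), by library totals (1586), no low-count filter (1637), a filter of 5 CPM in 3 libraries (1618), DESeq2 (1402) and a fit of only the 2 groups (1657) left the count within 1.5 times of 1599. With trends of GC content and length removed 516 genes were called higher, against 805. The genes at least 1.5-fold higher numbered 42 with the 5 CPM filter, which tests fewer genes of low level, and 42 with DESeq2, against 86. Those at least 1.5-fold lower numbered 3 and 2, against 12. DESeq2 gave no adjusted p, and so no call, for some genes of low level, such as BMF, GLI2 and FGF20. Their log2 fold changes by DESeq2 were 1.66, 1.12 and -0.99, beside 1.65, 1.12 and -0.99 by edgeR. How much of the drop such genes make up was not tested. The replicate block gave 1537 calls; the libraries share only a number, so this is no paired design. With each TCDD or DMSO library left out in turn, 805 to 1791 genes were called, 440 to 867 higher and 365 to 924 lower. Of these 68 to 89 were at least 1.5-fold higher and 5 to 16 at least 1.5-fold lower. TCDD against kynurenine gave 576 to 1323 calls, and 425 to 817 called genes had the same direction in kynurenine against CH223191. RNA18S5 lay at -4.52 to 3.02 with 1 library left out, and turned to 3.02 without DMSO replicate 1, which held most of its reads in DMSO, against -2.84 with it. No other named gene turned its direction. Depth limits the genes of low level: near 1 CPM a library holds few reads of a gene.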

Other observations

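Some gene groups have not been described above. Of 32 tested kinesins, the motors that move along microtubules, 6 were higher with TCDD and 3 lower, with a median log2 fold change of 0.056, and 2 were higher and 3 lower with the trends of GC content and length removed. Of 17 tested bHLH-PAS proteins, the family of AHR, 4 were higher and 1 lower, among them HIF1A. Of 7 tested SOX factors 2 were lower by edgeR, both in every setting, and by DESeq2, with 0 higher by either and 0 higher at an unadjusted p under 0.05. Of 31 HOX genes 1 was higher and 0 lower by edgeR, 0 were called by DESeq2, and 4 were higher and 0 lower at an unadjusted p under 0.05. Of 416 tested intergenic and antisense long non-coding RNAs 9 were higher and 3 lower, which is 2.16% and 0.721%, below the shares over all tested genes. Histone genes, whose main transcripts carry no poly(A) tail, had a median of 0.37 over 33 tested members, with 4 higher and 0 lower by edgeR, 0 called by DESeq2, and 14 higher and 0 lower at an unadjusted p under 0.05. Of 34 autophagy and lysosome genes 1 was higher and 1 lower.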
